A study of Mus musculus with 4 samples.

Results

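The collagen genes of the mouse were followed here in sorted cells of mammary tumours. Every gene whose name on the array has the form of a collagen alpha chain was taken: 44 genes with 91 probes, of 37074 gene names and other features on the array. Of these, 28 count as detected, since the scanner software marked them as well above background on 2 or more arrays of 4; so did 23520 features in all. The rule used the gene name and detection alone. The 44 genes comprised 11 fibrillar collagens, 6 basement membrane collagens, by which only the type IV chains are meant, and 27 others, among them Col15a1 and Col18a1.

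The tumours came from 4T1, a mouse mammary carcinoma line, implanted in BALB/C mice that received no treatment. Cells were separated by activity of aldehyde dehydrogenase (ALDH) into a fraction labelled ALDH(-), here ALDH-low, and one labelled ALDH(+), here ALDH-high, and tumours were sampled at zeitgeber times ZT0 and ZT12. Each of the 4 combinations was measured on 1 one-colour Agilent array, so there were no replicates, and how many mice each fraction stands for is not stated. The comparisons that the labels imply are those between the ALDH fractions at each time and between the times in each fraction.

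Collagens are trimers of alpha chains whose helical part repeats glycine, any residue, any residue, since only glycine is small enough for the inside of the triple helix. Fibrillar collagens are secreted as procollagens, trimmed, assembled into banded fibrils and crosslinked, whereas type IV collagens keep their ends and join into the sheet-like network of basement membranes. Other collagens decorate fibrils, form beaded filaments or anchoring fibrils, or span the cell membrane. In mammary tumours, collagens are made by fibroblasts of the stroma and, for several types, by the carcinoma cells themselves. On bulk material such as these fractions, fewer cells of a type and less RNA per cell cannot be told apart.

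The repeat that defines the family can be read in the probes. Of the collagen probes, 4 carried a glycine codon at each position of that repeat in 1 reading frame over their length of 60 bases. Those of Col6a3 and Col5a3 are shown, with the glycine codons in capitals. Each lies in the helical part of the message, upstream of the gene's probe nearest the 3′ end, and the Col6a3 probe is compared with the gene's other probes below:
Col6a3: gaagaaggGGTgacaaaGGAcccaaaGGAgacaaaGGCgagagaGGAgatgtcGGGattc
Col5a3: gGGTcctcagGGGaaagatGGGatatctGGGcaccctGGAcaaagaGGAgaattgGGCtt
The Col6a3 probe spans chr1:92689602-92690594 on the minus strand of mm9, the build of the scanner files, and so crosses a splice junction. It was well above background on all 4 arrays. The Col5a3 probe spans chr9:20590066-20590795 on the minus strand of mm9 and was not well above background on any array, although the other Col5a3 probe, nearer the 3′ end, was so on all 4. Exon and UTR positions were not analysed here.

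Signals are given as levels: the log2 processed signal minus the array's 75th percentile, for the brightest probe of each gene, so that 0 is the level of the 75th percentile. A level can be compared between arrays for 1 probe, not between genes. Where 4 levels follow each other, they are those of ALDH-low and ALDH-high at ZT0 and then of ALDH-low and ALDH-high at ZT12. A member counts as higher or lower where the difference between 2 arrays was at least 2-fold, which is 1 log2 unit. Where 1 of the 2 arrays was not well above background, a lower bound stands for the difference. Between 55.8% and 60.6% of the spots were well above background on each array. On each array, 0 spots were saturated. One slide held the pair of ZT0 arrays and another the pair of ZT12 arrays, so that time and slide cannot be told apart. Likewise, ZT0 ALDH-low and ZT12 ALDH-high lay at position 1_1 and the other arrays at position 1_2. Every comparison between the fractions at 1 time, or between the times in 1 fraction, thus sets 1 position against the other. An ALDH difference at either time, whether or not it turns between the times, cannot be told apart from a difference between positions. Of the 44 collagens, 28 were well above background in ALDH-low at each time, 26 in ALDH-high at ZT0 and 22 in ALDH-high at ZT12.

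**Figure D1:**
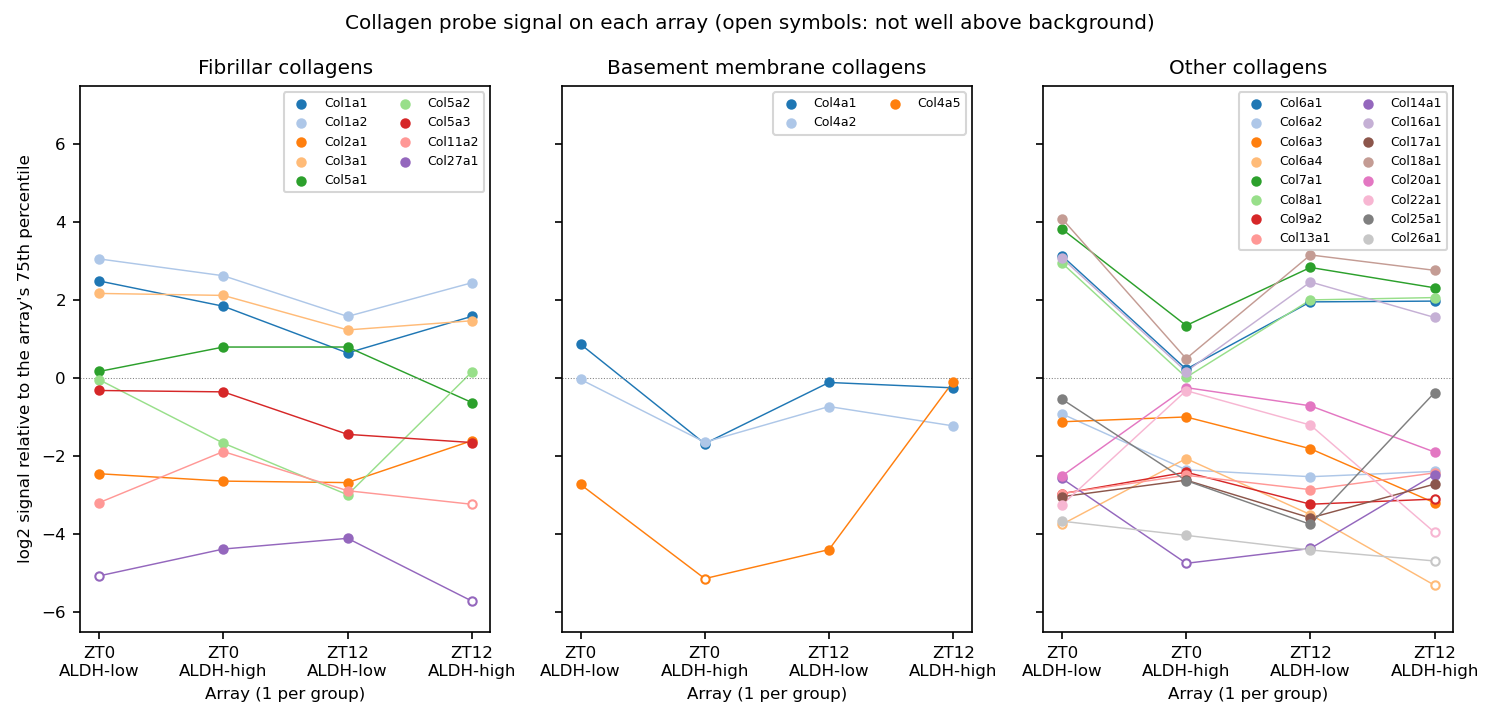
Level of each detected collagen on the 4 arrays, as log2 signal relative to the array's 75th percentile, in 3 panels for the fibrillar, basement membrane and other collagens. Each point is 1 array and each line 1 gene, and open symbols mark arrays where the probe was not well above background. Col6a1, Col7a1, Col8a1, Col16a1 and Col18a1 share a low point on the ZT0 ALDH-high array, at levels from 0.03 to 1.35, while Col1a1, Col1a2 and Col3a1 have theirs on ZT12 ALDH-low.

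At ZT0, the 3 detected type IV collagens were at least 2-fold lower in ALDH-high than in ALDH-low, as were Col7a1, Col8a1, Col16a1 and Col18a1. Of the 4 detected type VI chains, Col6a1 and Col6a2 were lower by that rule, Col6a3 was not and Col6a4 was higher. Col1a1, Col1a2 and Col3a1 were within 2-fold by their brightest probes. Of the 28 detected collagens, 12 were at least 2-fold lower in ALDH-high than in ALDH-low at ZT0, or 42.9%, against 31.2% of all features. A further 4 were at least 2-fold higher, or 14.3%, against 19.4% of all features. At ZT12, 4 collagens were at least 2-fold lower (16.3% of all features were) and 5 higher (31.3% of all features were). The median difference over the collagens measured on both arrays was -0.40 at ZT0 and 0.10 at ZT12, beside -0.30 and 0.22 over all features.

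A group of 8 collagens was at least 2-fold lower in ALDH-high at ZT0 and within 2-fold between the fractions at ZT12. They were Col4a1, Col4a2, Col6a1, Col6a2, Col7a1, Col8a1, Col16a1 and Col18a1, out of 20 collagens well above background on all 4 arrays. The shape was picked after the values were seen and was not tested. At each time the fractions lay at different array positions, so that an effect of position cannot be told apart from this shape. Over all features measured on all 4 arrays, 11.2% had this shape. None of the fibrillar collagens did: 0 of 7. Centring the arrays on their median in place of the 75th percentile shifted the ALDH difference of all features by 0.48 at ZT0 and by -0.87 at ZT12. Then 7 of the 8 stayed at least 2-fold lower at ZT0, but only 2 of those 7, Col6a1 and Col8a1, were also within 2-fold at ZT12. Under that centring, 7.11% of all features measured on all 4 arrays had the shape, so that 2 of 20 collagens is near that share. With normexp background, 6 of the 8 kept the shape, where 8.75% of all such features had it.

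Of the basement membrane class, Col4a1 and Col4a2 encode the chains of the common type IV trimer. Col4a1 stood at 0.88 in ALDH-low and -1.67 in ALDH-high at ZT0, and at -0.11 and -0.24 at ZT12. It was thus 5.86-fold lower in ALDH-high at ZT0 (-2.55), with both ZT12 arrays between those values. Col4a2 stood at -0.03, -1.64, -0.72 and -1.22 in the same order of arrays. It was 3.06-fold lower in ALDH-high at ZT0 (-1.61) and differed by -0.50 at ZT12. Both chains had the highest level on ZT0 ALDH-low and the lowest on ZT0 ALDH-high. The genes are next to each other on chromosome 8 and are read in opposite directions from a shared promoter region. Their probes lay at chr8:11199009-11199068 on the minus strand and chr8:11448840-11448899 on the plus strand of mm9.

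Col4a5, a chain of the type IV network found in fewer tissues, was well above background on 3 arrays and not on ZT0 ALDH-high. Its brightest probe stood at -2.72 on ZT0 ALDH-low, and at ZT12 it stood at -4.39 in ALDH-low and -0.08 in ALDH-high. It was at least 3.64-fold lower in ALDH-high at ZT0 and 19.9-fold higher in ALDH-high at ZT12. Its second probe, nearer the 3′ end, gave a difference of only -0.17 at ZT12, so that the ZT12 value rests on 1 probe. Col4a3, Col4a4 and Col4a6, the remaining type IV chains, were not well above background on any array.

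Col18a1, a multiplexin that is counted here with the other collagens although its product also lies in basement membranes, and whose cleavable end is known as endostatin, had the widest range among the collagens measured on all 4 arrays. It stood at 4.10 in ALDH-low and 0.51 in ALDH-high at ZT0, and at 3.17 and 2.77 at ZT12. The difference between fractions was -3.59 at ZT0, which is 12.1-fold, and -0.39 at ZT12. The ZT0 ALDH-high array alone was low, and in ALDH-high the level was 2.27 higher at ZT12 than at ZT0. The related Col15a1 was not well above background on any array.

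Col7a1, the anchoring fibril collagen that ties epithelium to the matrix beneath it, stood at 3.83, 1.35, 2.84 and 2.32 on ZT0 ALDH-low, ZT0 ALDH-high, ZT12 ALDH-low and ZT12 ALDH-high. It was 5.57-fold lower in ALDH-high at ZT0 (-2.48), and the difference at ZT12 was -0.52. Col8a1, a short chain collagen that forms hexagonal networks, stood at 2.96, 0.03, 2.01 and 2.07 in the same order. It was 7.64-fold lower in ALDH-high at ZT0 (-2.93) and the ZT12 arrays differed by 0.06. Col16a1, a fibril-associated collagen, stood at 3.08, 0.17, 2.47 and 1.56. It was 7.52-fold lower in ALDH-high at ZT0 (-2.91) and 1.88-fold lower at ZT12 (-0.91), the largest ZT12 difference of the 8. In each of these genes the ZT0 ALDH-high array was the lowest of the 4. The other short chain collagens, Col8a2 and Col10a1, were not well above background on any array.

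Type VI collagen forms beaded filaments from 3 different chains, and here the probes of the chains gave unlike values. Col6a1 stood at 3.15 in ALDH-low and 0.23 in ALDH-high at ZT0, and at 1.96 and 1.98 at ZT12. It was 7.52-fold lower in ALDH-high at ZT0 (-2.91), with a difference of 0.02 at ZT12. Col6a2, its neighbour on chromosome 10, stood at -0.91, -2.35, -2.52 and -2.39. It was 2.70-fold lower in ALDH-high at ZT0 (-1.44), and just within 2-fold with median scaling (-0.95) or normexp background (-0.96). ZT0 ALDH-low was the 1 high array and the other three lay close together. Col6a3, the large chain, stood at -1.11, -0.99, -1.81 and -3.19 by its brightest probe. It differed by 0.12 at ZT0 and was 2.62-fold lower in ALDH-high at ZT12 (-1.39). The sign at ZT12 turns with the probe, as given with the probes of 1 gene below. Col6a4 was well above background on ZT0 ALDH-high and ZT12 ALDH-low alone, at -2.06 and -3.50, which made it at least 3.22-fold higher in ALDH-high at ZT0. Col6a5 and Col6a6 were not well above background on any array.

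**Figure D2:**
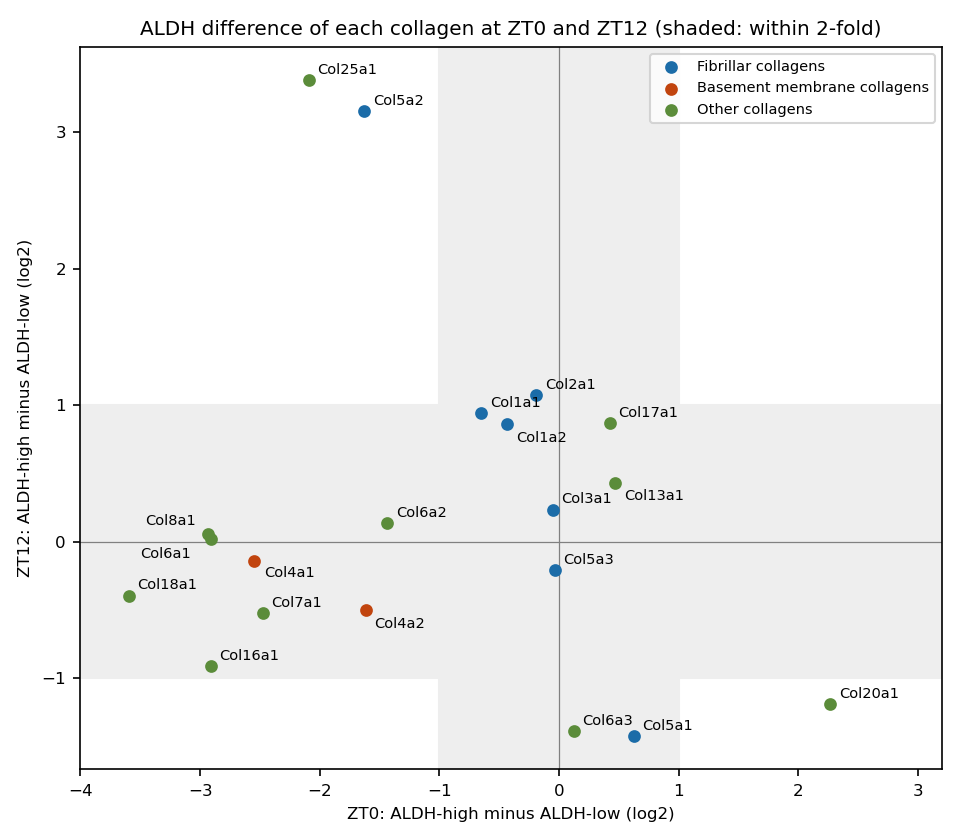
ALDH-high minus ALDH-low difference (log2) at ZT0 on the horizontal axis and at ZT12 on the vertical axis, 1 point for each of the 20 collagens well above background on all 4 arrays, coloured by class. Shaded bands mark differences within 2-fold; the 8 collagens at the left of the horizontal band lie between -3.59 and -1.44 at ZT0, and Col5a2 and Col25a1 stand apart at the upper left.

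By their brightest probes, the main fibrillar collagens were within 2-fold between the fractions. Col1a1 and Col1a2, the chains of type I collagen, and Col3a1, which forms type III collagen in soft tissue, were so at both times. Col1a1 stood at 2.50 in ALDH-low and 1.85 in ALDH-high at ZT0, and at 0.65 and 1.59 at ZT12. It was lower in ALDH-high by -0.65 at ZT0 and higher by 0.94 at ZT12, and ZT12 ALDH-low was the lowest array. Col1a2 stood at 3.06, 2.63, 1.59 and 2.45, with differences of -0.43 and 0.86. The 2 chains ran side by side: their ALDH differences were -0.22 apart at ZT0 and 0.08 apart at ZT12. Col3a1 stood at 2.18, 2.13, 1.24 and 1.48, with differences of -0.05 and 0.24. With the deposited series table, Col1a1 differed by -1.14 and Col1a2 by -1.02 at ZT0, and by 1.23 and 1.26 at ZT12. With quantile normalization Col1a1 differed by -1.11 at ZT0, and the ZT12 values were 1.18 and 1.22. These pass 2-fold, while Col3a1 stayed within it under both. Probes farther upstream in Col1a2 and Col3a1 were over 2-fold lower in ALDH-high at ZT0, as given with the probes of 1 gene below. By their brightest probes and under the 75th percentile scaling, all 3 genes had their highest level on ZT0 ALDH-low and their lowest on ZT12 ALDH-low. Their probes lay at chr11:94814188-94814247, chr6:4490619-4490678 and chr1:45405589-45405648, each on the plus strand of mm9.

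Type V collagen is a minor component that is built into type I fibrils and regulates their width. Col5a1 stood at 0.18, 0.80, 0.80 and -0.62 on ZT0 ALDH-low, ZT0 ALDH-high, ZT12 ALDH-low and ZT12 ALDH-high. It differed by 0.63 at ZT0 and was 2.68-fold lower in ALDH-high at ZT12 (-1.42). Col5a3 stood at -0.31, -0.35, -1.44 and -1.65, with differences of -0.04 and -0.21. Both ZT0 arrays of Col5a3 lay above both ZT12 arrays. Col5a2 behaved otherwise by its brightest probe: -0.03, -1.66, -2.99 and 0.16. It was 3.09-fold lower in ALDH-high at ZT0 (-1.63) and 8.89-fold higher at ZT12 (3.15). That probe is assigned to an Ensembl transcript alone, at chr1:45445876-45445935 on the minus strand of mm9. The Col5a2 probe nearer the 3′ end was well above background on the ZT0 arrays only, at -3.18 and -4.07.

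The cartilage chain Col2a1 stood at -2.45, -2.64, -2.68 and -1.60, highest on ZT12 ALDH-high. It differed by -0.19 at ZT0 and was 2.11-fold higher in ALDH-high at ZT12 (1.07), a call lost with median scaling (0.20), quantile normalization (0.44) and the series table (0.45). Col11a2, another cartilage-type fibrillar chain, was not well above background on ZT12 ALDH-high. It stood at -3.19 on ZT0 ALDH-low, -1.88 on ZT0 ALDH-high and -2.88 on ZT12 ALDH-low, which is 2.48-fold higher in ALDH-high at ZT0 (1.31), or 0.34 with normexp background. Col27a1 was well above background on ZT0 ALDH-high and ZT12 ALDH-low alone, at -4.38 and -4.10. Col11a1 was so on ZT0 ALDH-low alone and counts as not detected, and Col24a1 was so on no array.

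By class, 1 of 9 detected fibrillar collagens, 3 of 3 basement membrane collagens and 8 of 16 other collagens were at least 2-fold lower in ALDH-high at ZT0. At ZT12 these counts were 1, 0 and 3. The median difference at ZT0 was -0.12 for fibrillar, -2.08 for basement membrane and -0.90 for other collagens, over 8, 2 and 14 genes measured on both arrays. At ZT12 it was 0.86, -0.14 and 0.04, over 7, 3 and 12 genes. The basement membrane class holds few detected genes, and its median at ZT0 is that of Col4a1 and Col4a2. With the arrays centred on their median, the class medians were 0.36, -1.60 and -0.42 at ZT0 and -0.01, -1.01 and -0.83 at ZT12, in the same order. The fibrillar median therefore has no direction at either time that holds under both scalings.

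Among the remaining collagens, several were high on different arrays. Col20a1, a fibril-associated collagen, stood at -2.51, -0.24, -0.71 and -1.89 on ZT0 ALDH-low, ZT0 ALDH-high, ZT12 ALDH-low and ZT12 ALDH-high. It was 4.81-fold higher in ALDH-high at ZT0 (2.27) and 2.28-fold lower at ZT12 (-1.19, or -0.48 with normexp background), so that both arrays at position 1_2 lay above both at 1_1. Col22a1, a collagen of tissue junctions, was 7.63-fold higher in ALDH-high at ZT0 by its brightest probe (2.93) and at least 4.61-fold lower at ZT12. Its second probe, well above background on all 4 arrays, gave a difference of -0.27 at ZT0. Col25a1, a transmembrane collagen, stood at -0.53, -2.62, -3.75 and -0.37. It was 4.26-fold lower in ALDH-high at ZT0 (-2.09) and 10.4-fold higher at ZT12 (3.38), so that both arrays at position 1_1 lay above both at 1_2. Col14a1, a fibril-associated collagen, was at least 4.05-fold lower in ALDH-high at ZT0 and 3.72-fold higher at ZT12 (1.90, or 0.95 with quantile normalization).

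The transmembrane collagens Col13a1 and Col17a1 were within 2-fold between the fractions at both times. Col13a1 stood at -2.96, -2.49, -2.86 and -2.43, with differences of 0.47 at ZT0 and 0.43 at ZT12. Its range over the 4 arrays, 0.53, was the narrowest of the 20 collagens measured on all of them. Col17a1, which in epithelium belongs to the hemidesmosome, stood at -3.04, -2.61, -3.58 and -2.71, with differences of 0.42 and 0.87, the latter 1.04 with normexp background. Col9a2 and Col26a1 were well above background on every array but ZT12 ALDH-high. Col9a2 differed by 0.55 and Col26a1 by -0.36 at ZT0. The others counted as not detected were Col12a1, which was well above background on ZT0 ALDH-low alone, and Col9a1, Col9a3, Col19a1, Col23a1 and Col28a1, which were so on none. In all, 16 collagens were not detected, 14 of them on any array.

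The times differed in both directions. In ALDH-low, 9 of 28 collagens were at least 2-fold lower at ZT12 than at ZT0, or 32.1%, against 32.6% of all features, and 2 were higher, or 7.14%, against 16.3% of all features. In ALDH-high, 7 were lower (19.1% of all features were) and 10 higher, or 35.7%, against 32.1% of all features. The shares of lower collagens in ALDH-low and of higher ones in ALDH-high thus lie near those of all features. Among fibrillar collagens, the differences in ALDH-low were -1.85 for Col1a1, -1.48 for Col1a2, -0.94 for Col3a1 and -1.13 for Col5a3. In ALDH-high they were -0.26, -0.18, -0.65 and -1.30. Col1a1, Col1a2 and Col5a3 were thus at least 2-fold lower at ZT12 in ALDH-low, and Col5a3 also in ALDH-high. Of these, only Col1a1 stayed so in ALDH-low under each of median scaling, quantile normalization, normexp background and the deposited series table. Its values ran from -2.25 to -1.03. Under the same settings, Col1a2 was -0.65 with median scaling, and Col5a3 lay between -0.93 and -0.30. Col5a2, by its brightest probe, was also lower at ZT12 in ALDH-low (-2.95), with values from -2.60 to -2.13 under those settings. In ALDH-high it was higher at ZT12 (1.83). In ALDH-high, Col5a3 was -0.66 with normexp background, and with quantile normalization Col1a1 and Col1a2 differed by 0.11 and 0.29. Median centring shifted the time difference of all features by 0.82 in ALDH-low and by -0.53 in ALDH-high. Under it the fibrillar median was -0.21 in ALDH-low, where it had been -1.03, and -0.79 in ALDH-high, where it had been -0.26. In the ALDH-high fraction, Col18a1 (2.27), Col8a1 (2.05), Col6a1 (1.75), Col4a1 (1.43) and Col16a1 (1.39) were higher at ZT12 than at ZT0; with median scaling Col4a1 (0.90) and Col16a1 (0.85) were within 2-fold.

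Of the 20 collagens measured on all arrays, 12 had their highest level on ZT0 ALDH-low, where 26.4% of all such features did. The lowest array was ZT0 ALDH-high for 7 of them, where 25.2% of all such features had it. It was ZT12 ALDH-low for 8, a count that cannot be judged here because the share of all such features was not computed.

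No single collagen passed the fit over all 4 arrays. In a limma fit with terms for ALDH and time, 0 of 23520 features had an adjusted p under 0.05 for ALDH and 0 for time, a share of 0% in each. At an unadjusted p under 0.05 there were 7 and 2 features. In this fit, the standard error of the ALDH difference was 1.54 log2 units, with 1 residual degree of freedom left over, namely how far the ALDH difference at one time departed from that at the other. The fit pooled this spread over all features, so that every feature had the same standard error and its p followed the size of its difference alone. With a term for array position in place of time, the median standard error over features was 0.296. In that fit, 1915 features had an unadjusted p under 0.05 and 0 passed after adjustment (limma, lowest adjusted p 0.608). Without a term for time the median standard error was 0.776, with 48 and 0 features. The lowest unadjusted p of a collagen was 0.196 for ALDH and 0.272 for time, by limma. Over the 4 arrays, the mean ALDH difference was largest for Col18a1 (-1.99), Col16a1 (-1.91) and Col7a1 (-1.50).

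Where a collagen had several probes, their place in the gene went with the values. Col1a1, Col1a2, Col3a1 and Col6a3 had 2 or more probes well above background on all 4 arrays. For Col1a1 the 3 probes lay within 1113 bases and gave alike differences: -0.65, -0.57 and -0.65 at ZT0, and 0.94, 1.11 and 1.14 at ZT12. For Col1a2, the probe 11286 bases upstream of the one nearest the 3′ end gave -2.30 at ZT0 and 2.90 at ZT12, where the latter gave -0.43 and 0.86. For Col3a1, the probe 31805 bases upstream gave -1.55 and 2.81, where the one nearest the 3′ end gave -0.05 and 0.24. Both upstream probes are assigned to Ensembl transcripts alone.

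For Col6a3 the probe printed above, which reads the glycine repeat, gave -1.82 at ZT0 and 4.81 at ZT12, and an Ensembl probe beside it gave -2.30 and 3.24. The probe nearest the 3′ end gave 0.12 and -1.39. In each of Col1a2, Col3a1 and Col6a3, the upstream probes were thus higher on both arrays at position 1_1 and lower on both at 1_2. The difference between positions, as the mean of the 1_1 arrays minus that of the 1_2 arrays, was 2.60 for the upstream Col1a2 probe and 0.65 for the last one, 2.18 and 0.14 for Col3a1, and 3.32 and -0.76 for Col6a3. The 3.32 is that of the printed Col6a3 probe, and the Ensembl probe, which lies farthest upstream, gave 2.77. Over 4338 genes with probes at least 1000 bases apart, the most upstream probe exceeded the last one in this difference in 64.5%, with a median excess of 0.25. Spike-in control slopes were 0.873 and 0.789 at position 1_1, and 0.956 and 0.944 at 1_2. The part of either in the probe difference was not tested.

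**Figure D3:**
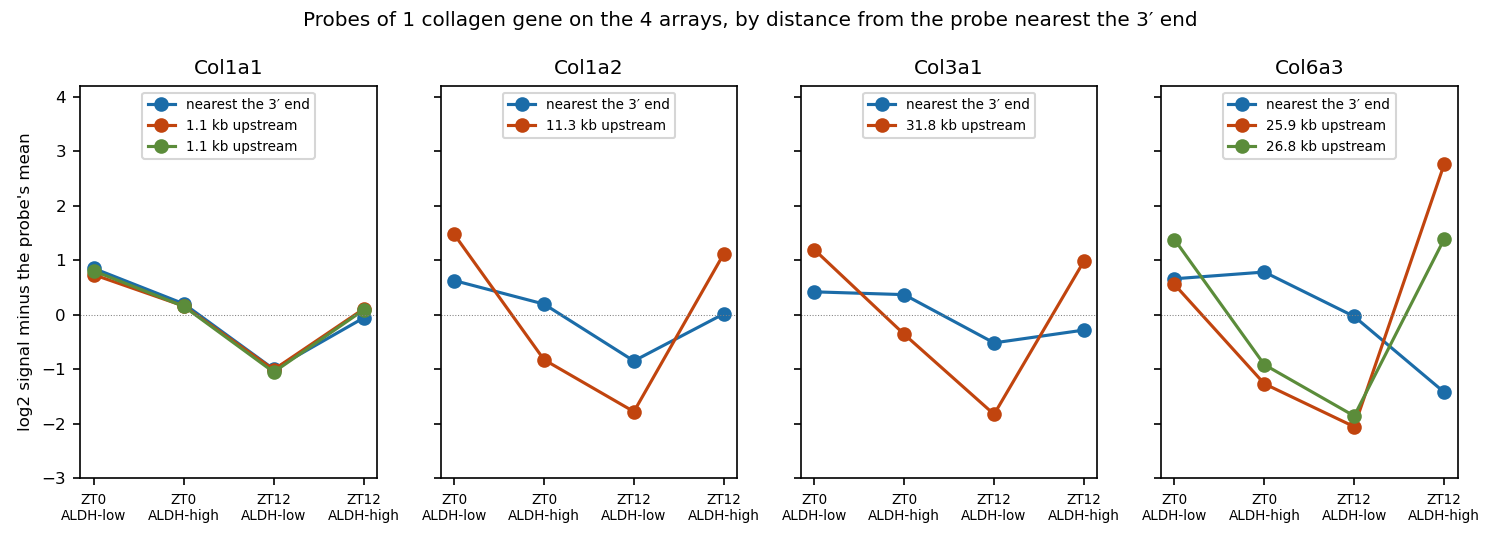
Log2 signal minus the probe's own mean over the 4 arrays, for the collagens with at least 2 probes well above background on every array; each line is 1 probe, labelled by its distance from the probe nearest the 3′ end. The 3 Col1a1 lines coincide, while the upstream probes of Col1a2, Col3a1 and Col6a3 are high on the arrays of ALDH-low at ZT0 and ALDH-high at ZT12, and low on the other two.

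Promoter sequences of 35 of the 44 collagens were matched by symbol in RefSeq (GRCm38.p6), with 38 starts in all. The 250 bases before the start are shown for Col7a1, Col8a1, Col1a2 and Col3a1. By their brightest probes, Col7a1 and Col8a1 were over 2-fold lower in ALDH-high at ZT0, and Col1a2 and Col3a1 were not. Upstream probes of Col1a2 and Col3a1 gave -2.30 and -1.55 at ZT0, and Col1a2 gave -1.02 with the deposited series table. The contrast between these genes thus depends on the probe, and a link to their promoters was not tested. Capitals mark the CCAAT box, the GC box with the letters GGGCGG, and the letters of a TATA box, TATAAA, on either strand:
Col7a1: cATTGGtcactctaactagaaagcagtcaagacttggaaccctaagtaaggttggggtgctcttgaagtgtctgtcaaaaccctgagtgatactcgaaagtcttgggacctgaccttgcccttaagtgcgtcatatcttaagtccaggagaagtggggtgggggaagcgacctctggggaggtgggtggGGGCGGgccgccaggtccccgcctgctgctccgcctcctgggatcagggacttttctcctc
Col8a1: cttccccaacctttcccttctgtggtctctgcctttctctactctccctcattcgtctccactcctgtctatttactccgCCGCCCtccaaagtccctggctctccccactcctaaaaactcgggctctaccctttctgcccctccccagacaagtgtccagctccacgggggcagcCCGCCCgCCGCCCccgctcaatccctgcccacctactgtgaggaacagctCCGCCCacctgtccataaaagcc
Col1a2: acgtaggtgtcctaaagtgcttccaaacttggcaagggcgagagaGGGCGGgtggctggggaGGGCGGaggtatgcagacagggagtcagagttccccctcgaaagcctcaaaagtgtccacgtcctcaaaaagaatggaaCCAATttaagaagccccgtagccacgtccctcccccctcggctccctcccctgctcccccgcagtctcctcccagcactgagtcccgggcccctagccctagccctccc
Col3a1: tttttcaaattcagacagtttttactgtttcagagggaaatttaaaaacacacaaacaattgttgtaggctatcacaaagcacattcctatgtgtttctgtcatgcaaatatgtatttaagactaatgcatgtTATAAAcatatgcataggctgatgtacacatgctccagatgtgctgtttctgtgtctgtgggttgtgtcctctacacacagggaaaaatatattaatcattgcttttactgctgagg
They lie at chr9:108953336-108953585, chr16:57754738-57754987 on the minus strand, chr6:4505368-4505617 and chr1:45311288-45311537 of GRCm38.p6, on the plus strand except for Col8a1. Col8a1 held 4 matches to GGGCGG, Col1a2 held 2 and Col7a1 held 1, while Col3a1 had 35.2% G and C and none of these. GGGCGG, or its reverse, was in 22 of 38 collagen promoters, or 57.9%, against 32.7% of 32851 promoters of the same length. CCAAT was in 34.2% against 33.8%, and TATAAA in 13.2% against 12.4%. Of the 10 starts of the 8 collagens that were lower at ZT0 alone, 7 held GGGCGG, 5 held CCAAT and 0 held TATAAA. Among the 24 starts of detected collagens, 66.7% held GGGCGG, 45.8% held CCAAT and 16.7% held TATAAA. The shares of GGGCGG and CCAAT in the 8, 70% and 50%, thus lie near those of detected collagens. A match describes these letters only.

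Genes that modify, fold and crosslink collagen were counted by the same 2-fold rule. Of 17 detected genes of chain modification and folding, 8 were lower in ALDH-high at ZT0 and 0 higher, where 31.2% and 19.4% of all features were. At ZT12, 0 of 16 were lower and 0 higher, where 16.3% and 31.3% of all features were. These 4 shares of all features are the background for the lists that follow. Serpinh1, the collagen chaperone HSP47, stood at 2.42 in ALDH-low and 0.09 in ALDH-high at ZT0, and at 1.80 and 1.46 at ZT12, a difference of -2.32 at ZT0 and -0.33 at ZT12. P4ha2, a prolyl hydroxylase subunit, stood at 0.52, -1.79, 0.39 and 0.39. The ZT0 ALDH-high array was the low one in both. P4ha1, the other main prolyl hydroxylase subunit, stood at 0.33, 1.01, 1.17 and 0.61, with no difference of 2-fold. Plod2, a lysyl hydroxylase and the gene of this list with the largest mean difference, differed by -2.55 at ZT0 and -0.37 at ZT12.

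Among 10 detected genes of propeptide removal and crosslinking, 6 were lower in ALDH-high at ZT0 and 0 higher, and 1 was lower and 1 higher at ZT12. Lox, the lysyl oxidase that crosslinks fibrils, stood at -1.38, -1.37, -2.41 and -2.25: alike in both fractions and lower at ZT12, as Col5a3 was. Loxl3, a relative of Lox, was lower in ALDH-high at both times, by -2.79 and -1.13. Of 8 detected procollagen export genes, 2 were lower and 2 higher at ZT0, shares near the background, and 3 were lower and 1 higher at ZT12. Sec24d, a coat protein of the export vesicle, differed by -1.29 at ZT0 and -1.17 at ZT12.

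Of 10 detected fibril-binding matrix genes, 4 were lower in ALDH-high at ZT0, a share near the background, and 0 higher. At ZT12, 0 were lower and 3 higher, the latter also a share near the background. Sparc, a collagen-binding glycoprotein, stood at 5.54, 4.43, 4.85 and 4.96, and Fn1, fibronectin, at 7.43, 6.07, 7.06 and 7.22. Both were lowest on ZT0 ALDH-high, by differences of -1.11 and -1.35. Prelp differed by -3.18 at ZT0 and 1.31 at ZT12. Of 10 collagen receptors, 7 were lower at ZT0 and 0 higher, and 0 were lower and 3 higher at ZT12. The 3 higher ones are a share near the background. They were Itga1 (5.85) and Itga11 (3.47), chains of collagen-binding integrins, and Gp6 (2.17), the platelet collagen receptor. Ddr2, a receptor tyrosine kinase that binds fibrillar collagen, differed by -3.16 at ZT0 and -0.45 at ZT12. Of 6 collagen-degrading enzymes, 3 were lower and 2 higher at ZT0, and 3 lower and 1 higher at ZT12. Ctsk, cathepsin K, differed by -2.46 and -1.39.

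Among the lists of cell type markers, only the epithelial one held genes with the shape of the 8 collagens. All 12 epithelial markers, which 4T1 carcinoma cells should carry, were at least 2-fold lower in ALDH-high at ZT0. Their summed signal, in units of the array's 75th percentile, was 198.7 in ALDH-low and 12.3 in ALDH-high at ZT0, and 87.3 and 96.0 at ZT12. Of these, 9 had the shape of the 8 collagens, lower at ZT0 and within 2-fold at ZT12. Krt18, a simple-epithelium keratin and the marker with the largest mean difference, differed by -4.22 at ZT0 and 0.02 at ZT12. The part of the epithelial markers in the collagen differences was not tested.

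Of 12 fibroblast markers, 11 were detected, 5 lower and 2 higher in ALDH-high at ZT0, and 0 had the shape of the 8 collagens. Their summed signal was 31.0, 150.1, 93.2 and 33.6 on ZT0 ALDH-low, ZT0 ALDH-high, ZT12 ALDH-low and ZT12 ALDH-high. Pi16, the brightest of these genes by its sum, singled out after its values were seen, made up between 44.6% and 93.3% of it. Without Pi16 the sums were 16.8, 10.1, 8.89 and 18.6. Single fibroblast markers had other orders: Dcn stood at 2.26, 2.63, 2.42 and 1.61 and Thy1 at 2.70, -0.60, -1.52 and 3.41. Pdgfra, a receptor of fibroblasts, differed by -0.97 and -1.51. Dpt was not well above background. Of 10 pericyte and smooth muscle markers, 7 were detected, with sums of 25.9, 87.3, 60.7 and 29.7. Acta2, smooth muscle actin, made up between 88.2% and 94.9% of these, and without it the sums were 3.05, 4.41, 5.43 and 3.40. Of 10 endothelial markers, 5 were detected, and their sums lay between 1.07 and 1.46 on every array; Cdh5, Tek, Tie1, Emcn and Cldn5 were not detected.

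Blood cell markers also differed between the arrays. Of 9 neutrophil markers, 6 were higher and 0 lower in ALDH-high at ZT0 (median 3.16), and 2 higher and 5 lower at ZT12 (median -1.58). Their summed signal, of which S100a9, a calgranulin, made up between 26.5% and 47.0%, was 2252, 3168, 1950 and 3086 in the same order, and so goes against most members at ZT12. Macrophage signal was 213.3, 153.4, 147.5 and 262.4. The T and NK cell sums were 37.0, 16.3, 4.04 and 47.4, and the B cell sums 27.5, 5.02, 1.47 and 36.3. The erythroid sums were 850.1, 3.33, 3.70 and 284.7. Of the blood cell sums, those of macrophage, T and NK cell, B cell and erythroid markers were higher on both arrays at position 1_1. The neutrophil sum was not. The upstream probes of Col1a2, Col3a1 and Col6a3, and the brightest probes of Col5a2 and Col25a1, were likewise higher on both arrays at 1_1. Of 5 adipocyte markers, 3 were detected, with sums between 0.54 and 1.22. The part of any of these in the collagen values was not tested.

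**Figure D4:**
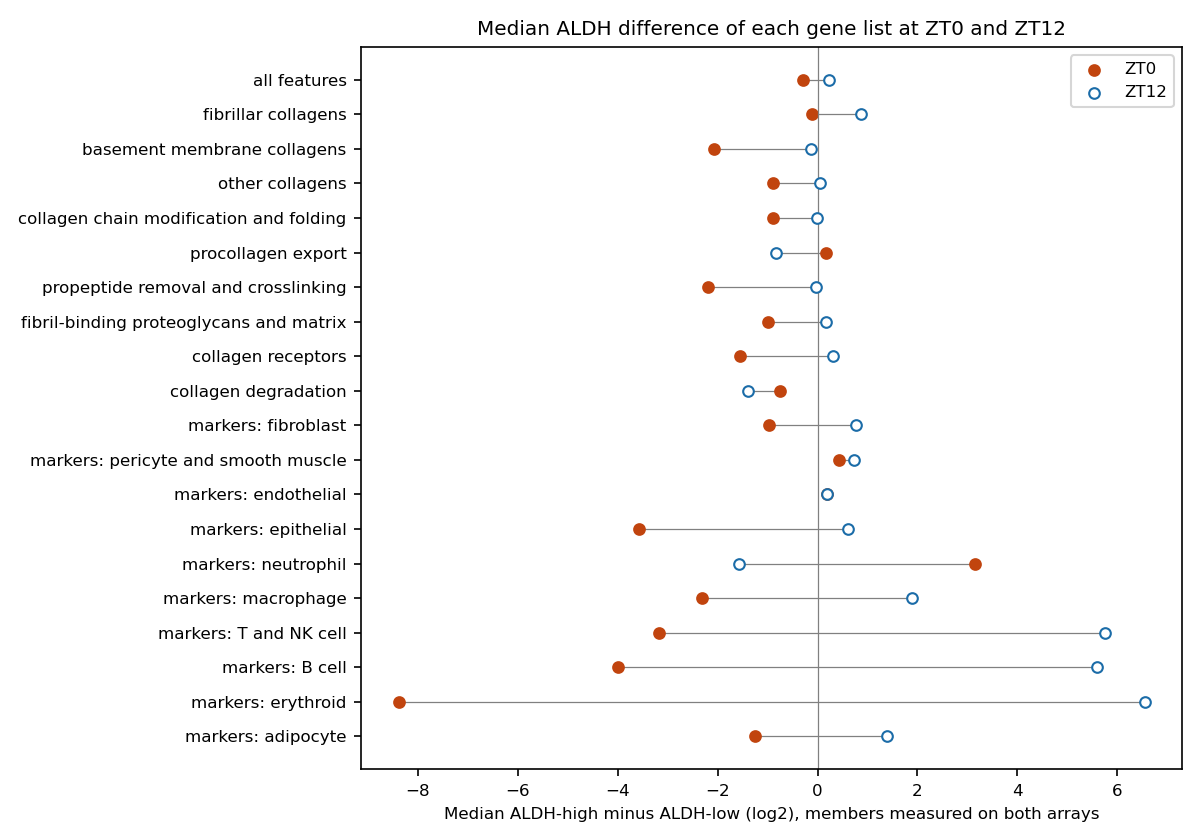
Median ALDH-high minus ALDH-low difference (log2) at ZT0 (filled) and ZT12 (open) for all features, the 3 collagen classes, the lists of collagen-related genes and the marker lists, over the members of each that were well above background on both arrays. Basement membrane collagens (-2.08 and -0.14) and the genes of propeptide removal and crosslinking (-2.19 and -0.03) lie to the left at ZT0 and near 0 at ZT12, as do epithelial markers from -3.57 to 0.61.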

How the data were processed

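Per the labels, total RNA went through a low-input amplification that labelled it with Cy3. Per the file headers, Agilent Feature Extraction 10.7.1.1 gave the processed signal, an intensity on a linear scale that is background-subtracted and not normalized between arrays; the submitters' processing notes name version 9.5.1.1. The deposited series table, also intensity, agreed in rank with the processed signal on each array and served as an alternative. Control spots were left out. Outlier spots were left out unless every spot of the probe on that array was an outlier. The 75th percentile was taken over all spots that were not controls. The log2 signal minus the array's 75th percentile was used, with the probe of highest mean level among those well above background on at least 2 arrays. Of 56605 probes, 34574 passed. Gene names and mm9 positions are those of the array files.

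All features were fitted with limma 3.58.1 in R 4.3.3 (terms for ALDH and time, Benjamini-Hochberg over 23520 features), which was tested on simulated data. A bound sets the brighter signal against the probe's own dim value or, if that is higher, against the weakest signal that counts as well above background on that array. Counts of all features include bounds. Every collagen on the array is named. Of the partner lists, Serpinh1, P4ha1, P4ha2, Lox, Plod2, Sparc, Fn1 and, of each list, the gene with the largest mean difference among those measured on all 4 arrays are named; other genes singled out (Krt18, Pdgfra, Dpt, Pi16, Dcn, Thy1, Acta2, S100a9, Itga1, Itga11, Gp6 and the endothelial markers not detected) were chosen after their values were seen. The members and lists were chosen with earlier results of these data known. With 1 array a group, p-values measure only the spread among these 4 arrays. Python 3.11.15 with pandas 2.3.3 and matplotlib 3.10.9 made the tables and plots.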

Additional observations from a re-analysis of the deposited data

Results flagged for a closer look

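Among the collagens measured on all 4 arrays, 3 were at least 2-fold different between the ALDH fractions in opposite directions at the 2 times; with 1 array a group the difference between the times was not tested. For Col25a1, the ALDH difference at ZT12 exceeded that at ZT0 by 5.47 log2 units, from -2.09 to 3.38. For Col5a2 it did so by 4.78 log2 units, from -1.63 to 3.15, by the probe assigned to an Ensembl transcript. For Col20a1 the change ran the other way, by -3.45 log2 units, from 2.27 to -1.19. An effect of array position cannot be told apart from these values, because each time has 1 fraction at each position and in the opposite order.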

How the results depend on the processing

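No paired analysis was possible because each group has 1 array and so no replicate numbers to pair; the fit with a term for time already sets both arrays of a slide against each other. Of 723 collagen differences recomputed under other settings, 9 turned a 2-fold difference around. The remaining 714 do not measure how well the 2-fold calls held. They include differences that were within 2-fold in the main processing, which could not count as turned. They also include 92 values recomputed without the detection rule, all of which counted as unchanged. With median scaling, all 92 values moved. This was fixed in advance, since that scaling shifts every difference of a comparison by the same amount, which exceeds the limit for unchanged values. The share of 2-fold calls that was kept is given below. For Col6a3, the ALDH difference at ZT12 was 2.64 with quantile normalization, 2.71 with the deposited series table and 2.22 with the mean of its probes, and its time difference in ALDH-high was 2.08, 2.14 and 1.37, since another probe was then brightest or counted. With only probes well above background on all arrays, Col22a1 gave -0.27 for ALDH at ZT0 and -1.52 for time in ALDH-low. With the probe nearest the 3′ end, an alternative chosen after seeing the data, Col4a5 gave -0.17 at ZT12, and 3 collagens were higher in ALDH-high at ZT12.

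Counts of collagens that moved by over 1.5 times were as follows, and their cause was not tested beyond the scaling shift given with the results. The shares of all features under these settings and folds are not given here. These counts therefore show how the calls depend on the processing and cannot be read as results about collagens. Median scaling gave 11 lower in ALDH-high at ZT12, and 3 lower and 5 higher at ZT12 in ALDH-low. Quantile normalization and the series table each gave 4 higher at ZT12 in ALDH-low. Normexp background gave 2 higher at ZT0, 2 lower at ZT12, 0 higher at ZT12 in ALDH-low and 2 lower at ZT12 in ALDH-high. Requiring all arrays gave 1 higher in ALDH-high at ZT0, 1 higher at ZT12 in ALDH-low and 4 lower at ZT12 in ALDH-high, with fewer genes. The mean of probes gave 2 lower and 9 higher in ALDH-high at ZT12 and 1 higher at ZT12 in ALDH-low. A fold of 1.5 gave 8 higher in ALDH-high at ZT12 and 18 lower at ZT12 in ALDH-low; a fold of 3 gave 1 lower in ALDH-high at ZT12 and 3 lower at ZT12 in ALDH-high. The 12 collagens lower at ZT0 stayed within 1.5 times of that count under each of these.

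Under median scaling, quantile normalization, normexp background and the series table, 11 of the 13 measured 2-fold calls between fractions at ZT0 were kept under all, against 4 of 8 at ZT12, 3 of 11 for time in ALDH-low and 6 of 12 for time in ALDH-high. The limma fit called 0 features for ALDH under every alternative that kept all arrays, and 0 for time in those with a term for it. When each array was left out in turn, the fits had a term for ALDH alone or for time alone. Their differences therefore mix ALDH with time, slide and position, and are not those of the fit with both terms. The median ALDH difference of the collagens, -0.09, ranged from -0.69 to 0.11 when each array was left out; its sign turned without ZT0 ALDH-low, to 0.10, and likewise without ZT12 ALDH-high. Being near background, the 8 collagens measured on 2 or 3 arrays have bounds only on the rest.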
